A study of Mus musculus with 4 samples.

Results

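The genes that encode the subunits of RNA polymerases (Pol) I, II and III were followed in MC38, a mouse colon cancer cell line, after exposure to 5-fluorouracil (5-FU). Members were all entries of the deposited gene table whose symbol starts with Polr1, Polr2 or Polr3 followed by a letter. This gave 29 of 36445 entries, of which 28 are protein-coding subunit genes and 1, Polr2k-ps, is a processed pseudogene. Treated cells received 5-FU at 1 mM and control cells PBS, both for 24 h, with 2 libraries per group made by polyA selection from total RNA. No genotype change is labelled in either group, and both used the same line and medium with serum and antibiotics. No label says that the 2 libraries of a group were separate cultures, so p-values cover only the spread between these libraries, which may be technical.

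Pol I transcribes the large ribosomal RNA precursor, Pol II transcribes messenger RNAs, and Pol III transcribes transfer RNAs and other short structural RNAs. Each enzyme is built on a pair of large catalytic subunits, encoded by the genes whose symbols end in a and b. Around this core sit an assembly dimer, a protruding stalk and a small subunit for RNA cleavage. A set of small subunits is common to all 3 enzymes, and the assembly dimer made by Polr1c and Polr1d is common to Pol I and Pol III. Pol I and Pol III also carry built-in parts that resemble the separate Pol II factors TFIIF and TFIIE. In dividing tumour cells the output of Pol I and Pol III feeds ribosome and tRNA supply, and metabolites of 5-FU enter RNA as well as DNA.

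Values are fragments scaled to gene length and library size (FPKM), a level per gene length within a library. They are relative to the library total, so they show neither the number of cells nor the amount of RNA per cell. The level steps implied about 20.8 and 20.6 M reads in the 5-FU libraries and 41.3 and 41.6 M reads in the PBS libraries. Replicates were closer in 5-FU than in PBS, with a median absolute gap of 0.0729 log2 in the 5-FU pair and 0.271 log2 in the PBS pair over 11644 tested genes. None of 10 epithelial marker genes reached the level needed for a test. Their sums were 1.87 and 1.74 FPKM in 5-FU and 0.780 and 1.55 FPKM in PBS, and Epcam was listed at 0 in both PBS libraries. Of 9 mesenchymal markers 8 were tested, of which 0 rose and 1 fell, Fn1, at 226.7 and 218.3 FPKM in 5-FU and 389.2 and 588.02 FPKM in PBS (log2 difference -1.10, adjusted p = 0.0155 by limma). Their sums were 1396 and 1352 FPKM in 5-FU and 1445 and 1595 FPKM in PBS, mostly from Vim, and Col1a2 was too low to test. The summed level of 7 leukocyte markers was at most 3.21 FPKM, with Cd3e at 0 in every library.

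Genes that reached 1 FPKM in 2 or more of the 4 libraries were compared with limma on log2(FPKM + 1), and a Benjamini-Hochberg adjusted p under 0.05 over all 11644 tested genes counted as passing. All 28 protein-coding subunit genes were tested, and the pseudogene was too low. After 5-FU, 12 of the 28 rose, 3 fell and 13 did not pass. Among the subunit genes 42.9% rose and 10.7% fell (53.6% in either direction), against 22.1% and 31.2% (53.3%) of all tested genes. The median log2 difference, 5-FU minus PBS, was 0.35 over the 28 subunit genes and -0.10 over all tested genes. Both 5-FU libraries lay above both PBS libraries in 16 subunit genes (57.1%) and below both in 5 (17.9%), a total of 75.0%, against 35.9%, 45.1% and 81.0% of all tested genes. Without 5-FU replicate 1 no subunit gene passed in either direction, against 259 and 237 of all tested genes higher and lower. Without 5-FU replicate 2 only Polr1c passed, against 293 and 299 of all tested genes. In those 2 fits a lone 5-FU library is assumed to vary like the PBS pair. Without a PBS library the lone PBS library is assumed to vary like the tighter 5-FU pair, and 4385 higher and 4975 lower genes (PBS replicate 1 left out) or 3822 and 5249 (PBS replicate 2 left out) then passed over all tested genes. Those fits are therefore read for the size and direction of a difference and not for calls, although the 15 subunit calls were also made in both.

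**Figure D1:**
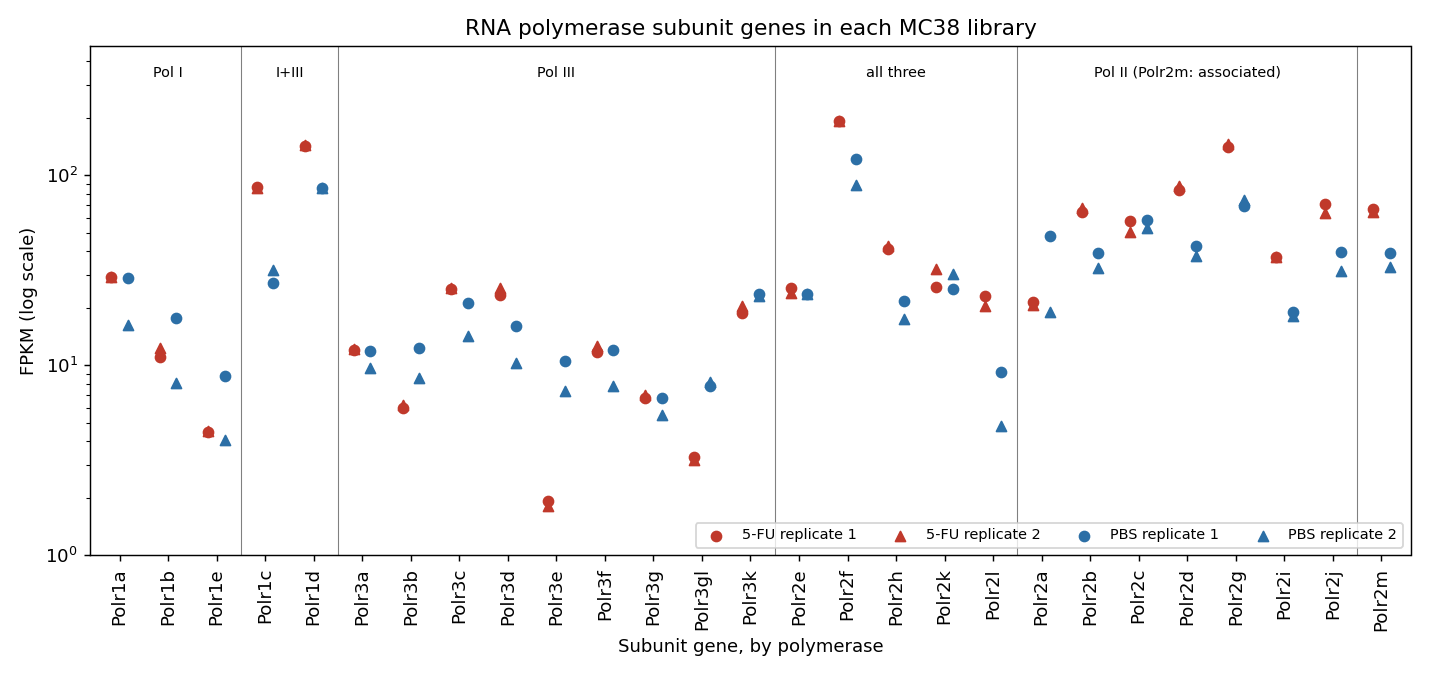
FPKM (log scale) of the named subunit genes in each library, ordered by the polymerase they serve; red marks are 5-FU libraries and blue marks PBS libraries, with circles for replicate 1 and triangles for replicate 2. The 5-FU libraries lie above both PBS libraries in 16 genes, and Polr3e and Polr3gl have the lowest 5-FU levels, at 1.93 and 1.82 FPKM and at 3.28 and 3.19 FPKM.

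By enzyme, of the 7 genes used by Pol II alone, 5 rose and 0 fell (median log2 difference 0.91). Both genes shared by Pol I and Pol III rose, as did 3 of the 5 genes shared by all 3 enzymes (median 0.88). Of the 10 genes that carry a Polr3 symbol and serve Pol III alone, 1 rose and 3 fell, with a median of -0.05. Over all tested genes 22.1% rose and 31.2% fell, so the share of these Pol III genes that fell was near that of all genes. None of the 3 Pol I genes that carry a Polr1 symbol and serve Pol I alone passed (median -0.04). The summed level of the Pol II genes was 476.7 and 473.4 FPKM in 5-FU and 315.8 and 266.2 FPKM in PBS. The 10 Pol III genes summed to 119.3 and 124.5 FPKM in 5-FU and 138.1 and 105.1 FPKM in PBS, so the groups overlapped. That sum leaves out Crcp of the Pol III stalk, which carries an older symbol. Crcp measured 61.3 and 60.3 FPKM in 5-FU and 35.4 and 29.2 FPKM in PBS. Over all genes, FPKM summed to 389900 and 387700 in 5-FU and 343600 and 359200 in PBS. The sums by enzyme were not scaled to these totals. Neither a difference between enzymes nor one between sums was tested.

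Among the largest subunits, which form the catalytic cleft, no gene passed. Polr1a measured 29.02 and 29.02 FPKM in 5-FU and 28.8 and 16.2 FPKM in PBS (log2 difference 0.41, adjusted p = 0.274 by limma). Polr2a, whose protein carries the long repeated tail that couples transcription to RNA processing, measured 21.7 and 20.9 FPKM in 5-FU and 48.2 and 19.1 FPKM in PBS. The PBS libraries enclosed both 5-FU values of Polr2a, and its log2 difference was -0.50 ± 0.437 (SE, adjusted p = 0.375). Against PBS replicate 1 alone the difference came to -1.14 log2, and against PBS replicate 2 alone to 0.146 log2. Polr3a measured 12.1 FPKM in both 5-FU libraries and 11.95 and 9.68 FPKM in PBS (adjusted p = 0.397). The PBS spread of these genes was part of a wider gap, since PBS replicate 1 lay above PBS replicate 2 in 23 of the 28 subunit genes. The median signed gap over all 28 was 0.291 log2, against 0.0673 log2 over all tested genes. The median absolute gap was closer to that of all tested genes, at 0.291 against 0.271 log2.

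Of the genes for the second large subunit, the other wall of the cleft, Polr2b rose, Polr3b fell and Polr1b did not pass. Polr2b (chromosome 5, 77310147 to 77349324, plus strand, GRCm38) measured 64.4 and 67.3 FPKM in 5-FU and 39.3 and 32.7 FPKM in PBS, with no overlap. It rose 1.83-fold (log2 difference 0.86 ± 0.131, adjusted p = 0.00766). Polr3b measured 5.95 and 6.18 FPKM in 5-FU and 12.3 and 8.55 FPKM in PBS, and fell by 0.68 log2 (SE 0.199, adjusted p = 0.0428). The Polr3b call is fragile: the adjusted p was 0.108 with no filter on low values, 0.137 with quantile normalization, and 0.0843 and 0.321 once the trend of the difference with exonic length or with genomic span was taken out. Polr1b overlapped between the groups, at 11.1 and 12.3 FPKM in 5-FU and 17.8 and 8.10 FPKM in PBS (adjusted p = 0.927). Its value came to -0.567 against PBS replicate 1 alone and to 0.479 against PBS replicate 2 alone, so its direction rests on which PBS library is kept.

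The assembly dimer, on which the large subunits are put together, rose in both members shared by Pol I and Pol III. Polr1c (chromosome 17, 46243920 to 46248054, minus strand) measured 86.6 and 86.2 FPKM in 5-FU and 27.03 and 31.8 FPKM in PBS, a log2 difference of 1.53 ± 0.124 (adjusted p = 0.00287). Its partner Polr1d rose 1.68-fold, to 142.7 and 143.7 FPKM in 5-FU, against 85.3 and 85.4 FPKM in PBS (adjusted p = 0.00566). Polr1c was thus at 0.607 and 0.600 of the Polr1d level in 5-FU and at 0.317 and 0.373 of it in PBS. In the Pol II counterpart, Polr2j rose 1.90-fold, with 70.9 and 63.3 FPKM in 5-FU and 39.3 and 31.3 FPKM in PBS (adjusted p = 0.00968). Its partner Polr2c overlapped between the groups, at 57.5 and 50.1 FPKM in 5-FU and 58.2 and 52.9 FPKM in PBS (adjusted p = 0.766). The ratio of Polr2j to Polr2c was 1.23 and 1.26 in 5-FU and 0.674 and 0.591 in PBS, also without overlap.

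**Figure D2:**
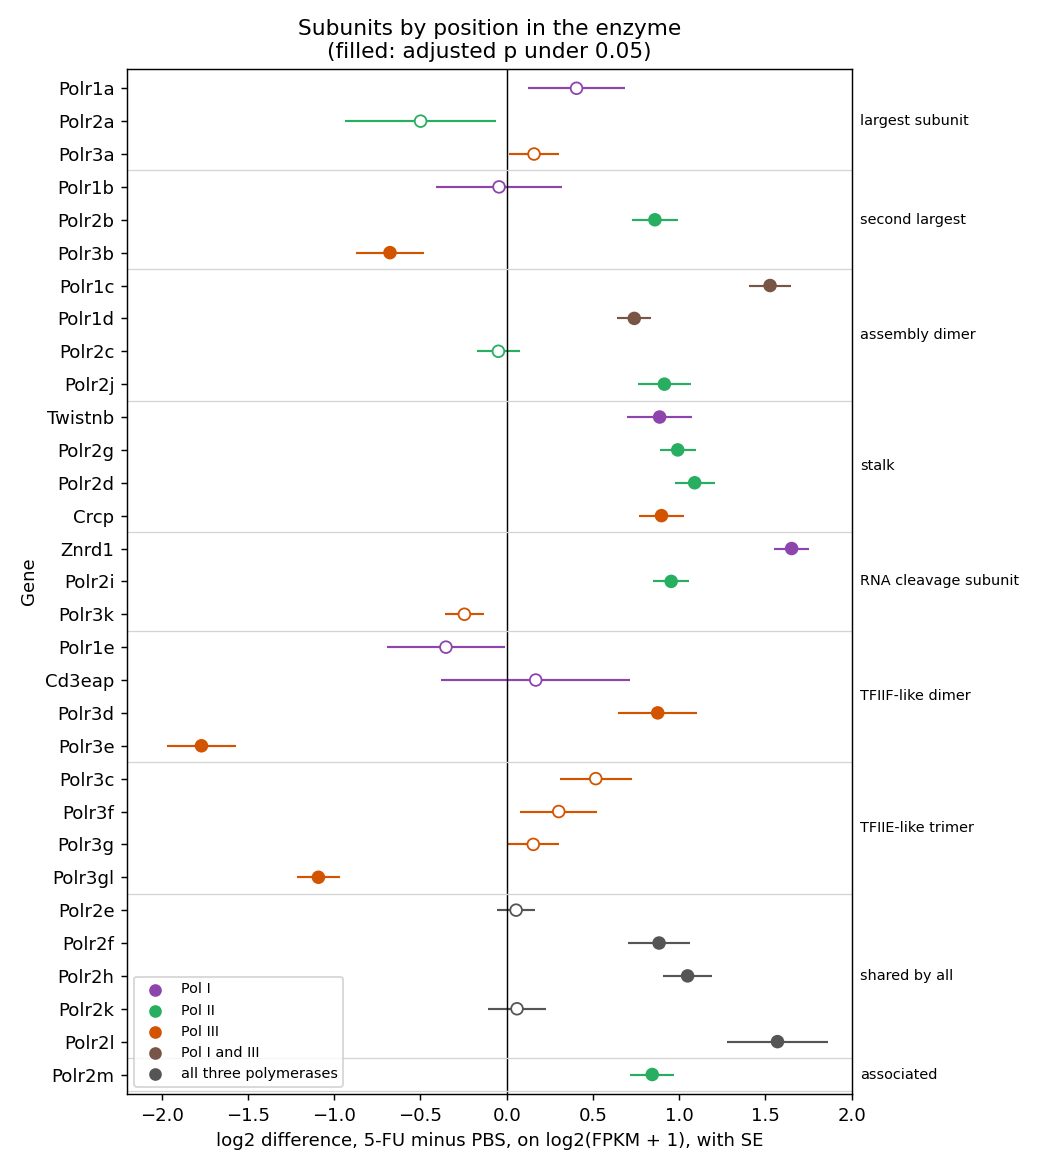
Log2 difference (5-FU minus PBS, on log2(FPKM + 1)) with its SE from limma for each named subunit gene, grouped by its position in the enzyme and coloured by polymerase; filled marks have an adjusted p under 0.05. Polr1c (1.53) and Polr2l (1.57) lie farthest right among the genes with a Polr symbol, and Polr3e (-1.77) and Polr3gl (-1.09) lie farthest left.

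The stalk, which guides the emerging RNA, rose in both Pol II genes. Polr2g measured 141.2 and 146.6 FPKM in 5-FU and 69.4 and 74.4 FPKM in PBS (log2 difference 0.99, adjusted p = 0.00394). Polr2d rose 2.15-fold, to 83.8 and 88.1 FPKM in 5-FU, against 42.3 and 37.5 FPKM in PBS (adjusted p = 0.00394). The 2 partners kept a similar ratio, with Polr2g at 1.68 and 1.66 times Polr2d in 5-FU and 1.64 and 1.98 times in PBS.

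Of the genes for the small subunit of RNA cleavage and proofreading, Polr2i of Pol II rose 1.99-fold, with 37.1 and 37.2 FPKM in 5-FU and 19.2 and 18.2 FPKM in PBS (adjusted p = 0.00422). Polr3k of Pol III measured 18.8 and 20.6 FPKM in 5-FU and 23.8 and 23.2 FPKM in PBS (log2 difference -0.24, adjusted p = 0.129). Its difference came to -0.227 log2 against PBS replicate 2 alone and to -0.263 log2 against PBS replicate 1 alone. The level of Polr2i relative to Polr3k was 1.97 and 1.81 in 5-FU and 0.805 and 0.786 in PBS.

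Within the TFIIF-like dimer of Pol III, which serves initiation and termination, the 2 partner genes passed in opposite directions. Polr3e (chromosome 7, 120917744 to 120947432, plus strand) measured 1.93 and 1.82 FPKM in 5-FU and 10.6 and 7.30 FPKM in PBS, with no overlap. It was 4.76-fold lower by mean FPKM, and its log2 difference on log2(FPKM + 1) was -1.77 ± 0.202 (adjusted p = 0.00453). Polr3d measured 23.5 and 25.7 FPKM in 5-FU and 16.2 and 10.3 FPKM in PBS, and rose by 0.88 log2 (adjusted p = 0.031, or 0.0956 if no filter on low values is used). The Polr3d to Polr3e ratio was therefore 12.2 and 14.1 in 5-FU and 1.53 and 1.41 in PBS. The matching Pol I gene Polr1e measured 4.48 and 4.53 FPKM in 5-FU and 8.81 and 4.03 FPKM in PBS, with overlap. Its adjusted p was 0.419, and its log2 difference came to -0.834 against PBS replicate 1 alone and to 0.13 against PBS replicate 2 alone.

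The TFIIE-like trimer of Pol III, which opens the promoter, holds either Polr3g or its paralog Polr3gl. In human cells POLR3G is known as the form of stem and transformed cells and POLR3GL as the widely expressed form. Polr3gl (chromosome 3, 96577872 to 96594181, minus strand) measured 3.28 and 3.19 FPKM in 5-FU and 7.83 and 8.20 FPKM in PBS, and was 2.48-fold lower (log2 difference -1.09 ± 0.127, adjusted p = 0.00468). Polr3g measured 6.75 and 7.02 FPKM in 5-FU and 6.75 and 5.47 FPKM in PBS (log2 difference 0.15, adjusted p = 0.422). It passed as higher with quantile normalization (0.467 log2, adjusted p = 0.045). Polr3g stood at 2.06 and 2.20 times Polr3gl in 5-FU and at 0.862 and 0.667 times Polr3gl in PBS, so the order of the 2 paralogs differed between the groups in every library. The other members of the trimer, Polr3c and Polr3f, did not pass, at 25.3 and 25.7 FPKM in 5-FU and 21.4 and 14.3 FPKM in PBS for Polr3c (adjusted p = 0.0967). Polr3f measured 11.7 and 12.7 FPKM in 5-FU and 12.1 and 7.78 FPKM in PBS (adjusted p = 0.302). The log2 difference of Polr3c came to 0.792 against PBS replicate 2 alone and to 0.241 against PBS replicate 1 alone. Against PBS replicate 2 alone the differences of Polr3f, Polr1a and Polr3a were 0.588, 0.801 and 0.298 log2. Against PBS replicate 1 alone they were 0.0157, 0.00921 and 0.0194 log2, so their size rests on which PBS library is kept.

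**Figure D3:**
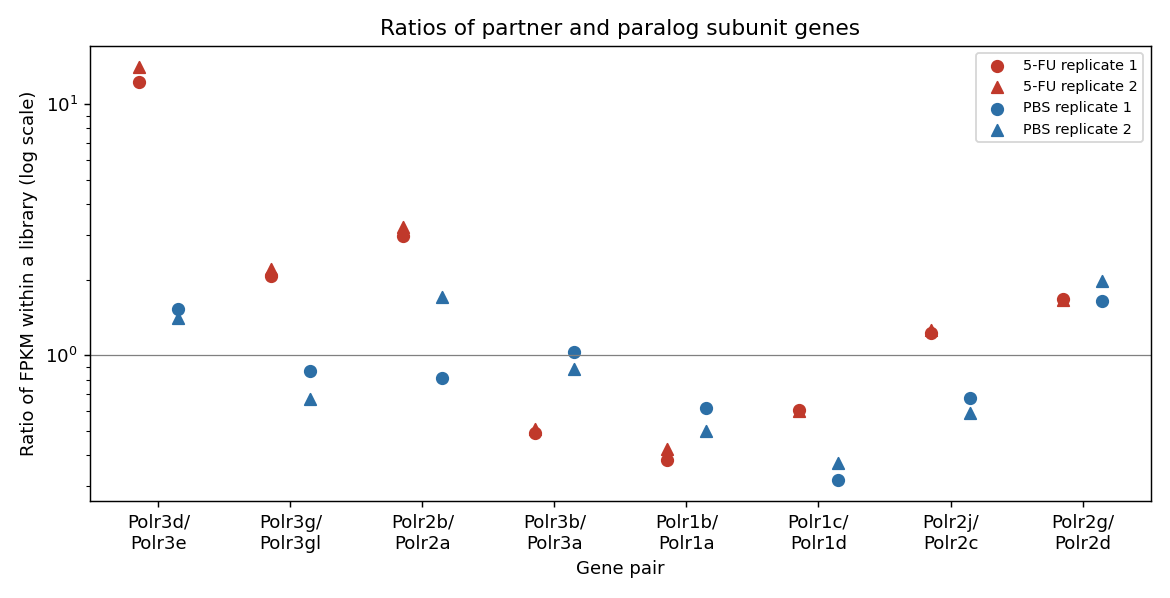
Ratio of FPKM within each library (log scale) for 8 pairs of partner or paralog genes; red marks are 5-FU and blue marks PBS, with circles for replicate 1 and triangles for replicate 2. Polr3d/Polr3e (12.2 and 14.1 in 5-FU, 1.53 and 1.41 in PBS) and Polr3g/Polr3gl (2.06 and 2.20 in 5-FU, 0.862 and 0.667 in PBS) separate by group, while Polr2g/Polr2d overlaps.

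The 5 small subunits common to all 3 enzymes did not move as 1 block. Polr2l, a zinc-binding subunit at the assembly platform, measured 23.2 and 20.6 FPKM in 5-FU and 9.21 and 4.81 FPKM in PBS, and rose 3.13-fold (log2 difference 1.57 ± 0.295, adjusted p = 0.013, or 0.0568 if no filter on low values is used). Polr2h rose 2.11-fold, to 41.0 and 42.5 FPKM in 5-FU, against 21.9 and 17.6 FPKM in PBS (adjusted p = 0.00606). Polr2f was the subunit gene with the highest level in every library, at 192.2 and 193.6 FPKM in 5-FU and 121.9 and 88.9 FPKM in PBS. It rose 1.83-fold (adjusted p = 0.0155), and missed the threshold with no filter on low values (0.058) and with quantile normalization (0.0541). Polr2e, which lies at the jaw that grips downstream DNA, measured 25.5 and 23.9 FPKM in 5-FU and 23.9 and 23.6 FPKM in PBS (adjusted p = 0.689). Polr2k measured 25.8 and 32.3 FPKM in 5-FU and 25.2 and 30.3 FPKM in PBS (adjusted p = 0.779). Polr2k is short, with 624 exonic bases, and its reads could be split with its processed pseudogene, so its level is uncertain. Polr2k-ps was listed at 0 in both 5-FU libraries and at 0.276 and 0.137 FPKM in PBS, about 2 and 1 reads.

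Polr2m encodes a protein that binds Pol II and competes with TFIIF, and is not part of the core enzyme. It measured 66.4 and 64.3 FPKM in 5-FU and 39.1 and 33.1 FPKM in PBS, and rose 1.81-fold (adjusted p = 0.00739). A further 4 subunits carry older symbols in the table and so fall outside the 29 entries. Znrd1, the Pol I counterpart of Polr2i, rose to 94.7 and 92.3 FPKM in 5-FU, against 29.3 and 28.9 FPKM in PBS (log2 difference 1.65, adjusted p = 0.0027). Twistnb of the Pol I stalk and Crcp of the Pol III stalk rose by 0.89 and 0.90 log2 (adjusted p = 0.0174 and 0.00711). Cd3eap, the partner of Polr1e, measured 9.42 and 8.55 FPKM in 5-FU and 14.6 and 4.06 FPKM in PBS (adjusted p = 0.812). Thus the stalk gene Twistnb and the cleavage gene Znrd1 of Pol I rose, while Polr1a and Polr1b did not pass.

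The sequences just before the start sites of the 2 genes with the largest rises and the 2 with the largest falls among those with a Polr symbol are given to show what lies at each promoter. They are the 250 bases upstream of the RefSeq start on GRCm38.p6, 5′ to 3′ on the strand of the gene, and the capitals mark matches to the motifs listed after them. The regions are chr17:46248046-46248295 (minus strand) for Polr1c, chr7:141475154-141475403 (minus) for Polr2l, chr7:120917528-120917777 (plus) for Polr3e and chr3:96594182-96594431 (minus) for Polr3gl. The GENCODE coordinates given above for Polr1c and Polr3e start inside these windows, since their RefSeq starts differ.
Polr1c: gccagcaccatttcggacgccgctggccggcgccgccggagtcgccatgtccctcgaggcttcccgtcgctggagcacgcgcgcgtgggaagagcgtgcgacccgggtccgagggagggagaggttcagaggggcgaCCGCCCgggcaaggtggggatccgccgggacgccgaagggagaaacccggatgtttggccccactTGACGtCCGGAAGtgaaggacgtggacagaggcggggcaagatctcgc
Polr2l: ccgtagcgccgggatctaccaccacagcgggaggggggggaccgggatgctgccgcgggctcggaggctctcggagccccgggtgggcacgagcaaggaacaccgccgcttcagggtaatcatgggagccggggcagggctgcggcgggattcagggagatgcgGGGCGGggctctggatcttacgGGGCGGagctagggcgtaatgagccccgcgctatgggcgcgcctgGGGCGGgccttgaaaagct
Polr3e: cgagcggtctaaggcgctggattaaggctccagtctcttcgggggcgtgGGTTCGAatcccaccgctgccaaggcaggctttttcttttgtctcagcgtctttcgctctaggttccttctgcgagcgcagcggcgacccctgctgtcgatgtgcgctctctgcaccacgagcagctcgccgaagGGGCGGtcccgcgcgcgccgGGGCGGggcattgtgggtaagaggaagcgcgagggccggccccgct
Polr3gl: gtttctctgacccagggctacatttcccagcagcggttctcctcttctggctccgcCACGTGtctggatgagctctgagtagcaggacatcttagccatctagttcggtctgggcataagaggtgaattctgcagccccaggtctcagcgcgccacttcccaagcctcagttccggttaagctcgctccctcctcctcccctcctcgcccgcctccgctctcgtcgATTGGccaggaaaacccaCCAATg

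RefSeq gave a start site for 22 of the 28 tested subunit genes, of which 9 rose and 3 fell, and both strands were searched for 9 motifs, none of which contains another. The cyclic AMP response core TGACG occurred in 5 of the 9 genes that rose, in 0 of the 3 that fell and in 1 of 10 that did not pass, against 17.8% of all 32851 promoters. The genes that rose and held it were Polr1c, Polr1d, Polr2f, Polr2j and Polr2m. The GC box GGGCGG occurred in 7, 1 and 6 of them, against 32.7% of all promoters, and the ETS motif CCGGAAG in 3, 1 and 1, against 6.91%. CCAAT occurred in 3, 1 and 3 (33.8% of all), the E-box CACGTG in 0, 1 and 1 (6.02%) and TATAAA in 0, 0 and 2 (12.4%). The NRF1 core TGCGCA occurred in 3, 0 and 0 (6.43%), and the YY1 core AAGATGG in none of the 22 (4.49%). The core GGTTCGA of the B box, the Pol III promoter element inside tRNA genes, occurred before Polr3e alone among the 22, against 0.758% of all promoters. It lies there inside an annotated tRNA gene, n-TLaag4 (chromosome 7, 120917517 to 120917598), which ends 180 bases before the RefSeq start site of Polr3e. Such an overlap with a tRNA gene was found for 8 of the 32851 promoters (0.0244%). These matches describe the letters in the window and were not tested as sites. The 32851 promoters were not limited to genes tested here, and no enrichment was tested.

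The subunit genes that rose were mostly compact. Their genomic span had a median of 5884 bp (1443 to 39178), against 29689 bp (16310 to 104887) for the 3 that fell and 17983 bp (3001 to 75883) for those that did not pass. Over the 28 genes, which share the same 4 libraries, the log2 difference and the log of the span had a Spearman rho of -0.534, and over all 11644 tested genes rho was -0.292. With exonic length rho was -0.566 over the 28 genes and -0.294 over all tested genes. With the mean PBS level rho was 0.401 and -0.0538, so span was not the only measure that went with the difference. Once the span trend was taken out, the same 12 subunit genes rose and 2 fell, Polr3b being the one that no longer passed. Polr2b, at 39178 bp, rose, while Polr2e (3847 bp) and Polr3k (6494 bp) did not pass. The part of span, exonic length or level in these differences was not tested further.

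**Figure D4:**
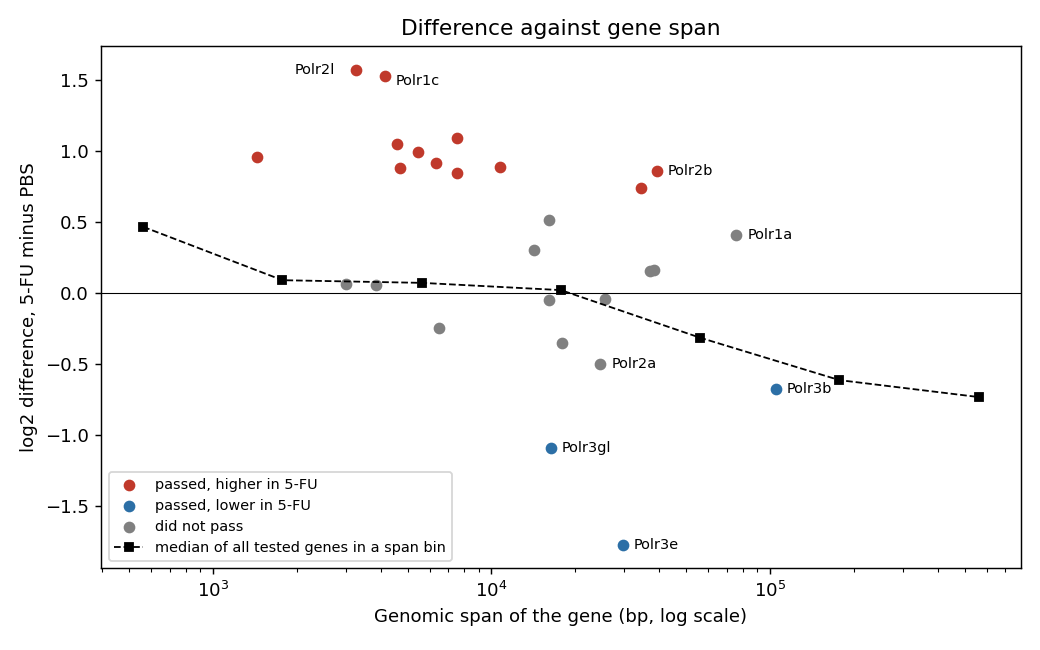
Log2 difference (5-FU minus PBS) of the named subunit genes against genomic span in bp (log scale), with red marks for genes that rose, blue for genes that fell and grey for genes that did not pass; black squares give the median of all tested genes in each span bin. The bin medians go from 0.465 in the shortest bin to -0.732 in the longest, and Polr1c and Polr2l lie well above them while Polr3e and Polr3gl lie below.

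The deposited values do not state a strand setting, so reads from exons shared with a gene on the opposite strand cannot be told apart. Polr2i shares 325 exonic bases with Tbcb, which stood at 42.9 and 41.9 FPKM in 5-FU and 39.65 and 40.3 FPKM in PBS. Polr2c shares 953 bases with Dok4, at 5.96 and 6.31 FPKM in 5-FU and 5.01 and 6.89 FPKM in PBS. Polr2j shares 176 bases with Lrwd1, which measured 3.34 and 3.42 FPKM in 5-FU and 10.4 and 8.42 FPKM in PBS. The part of these neighbours in the subunit values was not tested. Polr3gl, Polr2h, Polr2b, Polr1a, Polr2f and Polr3b share between 57 and 247 exonic bases with neighbours that averaged at most 1.85 FPKM over the 4 libraries.

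Genes that load, regulate or assemble the enzymes were mixed, with 30 higher, 19 lower and 41 not passing among 90 tested, counting the 4 subunits under older symbols. Over all tested genes 22.1% were higher and 31.2% lower, or 53.3% in either direction. Only the share of the 90 that passed in either direction was near that of all genes. By direction, more of the 90 were higher than lower, as in the subunit genes, while more of all tested genes were lower. The median log2 difference was 0.10 over the 90 and -0.10 over all tested genes. This tilt was not tested. Leaving out a library moved these counts to 2 higher and 1 lower (5-FU replicate 1), 3 and 1 (5-FU replicate 2), 46 and 28 (PBS replicate 1) or 35 and 32 (PBS replicate 2), the PBS fits again with the spread of the 5-FU pair. Of 8 Pol I initiation genes 3 rose and 0 fell: Taf1d and Taf1a of the promoter selectivity factor and Tbp, the TATA-binding protein used by all 3 enzymes, rose by 1.90, 2.04 and 0.92 log2. Of 15 Pol III initiation genes 5 rose and 3 fell, but 2 rose with no filter on low values, 3 rose when mitochondrial and ribosomal protein genes were removed, and 1 fell with quantile normalization. Snapc2, Bdp1 and Snapc5 rose by 0.66, 0.74 and 1.06 log2, and Gtf3c3, Snapc3 and Brf1, the last a subunit of the factor that recruits Pol III, fell by 0.98, 0.74 and 0.88 log2. Of 30 Pol II general factor genes 12 rose and 7 fell. Gtf2h1, Gtf2b and Taf7 rose by 1.38, 1.35 and 1.60 log2, while Gtf2a1, Taf1 and Taf12 fell by 1.77, 1.31 and 1.00 log2. Of 22 pausing and elongation genes 5 rose and 6 fell, with Supt4a, Nelfa and Larp7 higher by 1.51, 0.99 and 1.34 log2 and Aff4, Nelfcd and Cdk9 lower (-1.13, -0.64 and -0.46 log2). Of that list 2 genes were lower with no filter, 3 with quantile normalization and 3 with the exonic length trend removed. Of 11 assembly genes 2 rose, Ruvbl1 and Rpap3 (0.99 and 0.92 log2), and 3 fell (1 with no filter). Uri1, whose prefoldin-like protein binds the product of Polr2e, was 10.2-fold lower, at 1.75 and 2.01 FPKM in 5-FU and 18.3 and 20.2 FPKM in PBS, and Pih1d1 and Ruvbl2 fell by 0.85 and 0.41 log2. Polrmt, the separate single-subunit polymerase of mitochondria, fell to 3.98 and 4.21 FPKM in 5-FU, against 8.38 and 6.24 FPKM in PBS (adjusted p = 0.0289).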

How the data were processed

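RNA sequencing of 4 MC38 libraries was used, 2 with 5-FU and 2 with PBS. The authors deposited FPKM values per gene. GRCm38, Picard 2.9.0 and STAR 2.4.1a are listed in the submitters' processing notes, with no role stated. The read counter, the annotation release and the strand setting are not named in those notes or the labels. Coordinates, spans and exonic lengths came from GENCODE on GRCm38 and promoter sequences from RefSeq GRCm38.p6. Depth was estimated from the steps of FPKM times exonic length. Between 63.1% and 65.1% of values below 100 reads then fell within 0.02 of a whole read, so depths are approximate. Values plus a pseudocount of 1 were log2-transformed and fitted with limma 3.58.1 in R 4.3.3 (eBayes with trend, two-sided), after the fit was tested on simulated data. Folds are ratios of mean FPKM, and every SE and adjusted p is from limma. Log2 differences are on log2(FPKM + 1), so at low levels they are smaller than the log2 of the fold. Members, lists and tests were chosen with earlier results of these data known. All subunit genes but 1, which counts in the totals and is not reported here, are named, and in other lists up to 3 passing genes per direction with the smallest adjusted p. Alternatives covered pseudocounts, filters, scaling, variance models, the replicate block, left-out libraries and, chosen after seeing the data, trends with exonic length and span.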

Additional observations from a re-analysis of the deposited data

How the results depend on the processing

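The same 12 subunit genes were higher and the same 3 lower under pseudocounts of 0.1 and 0.5, median-ratio scaling, a required mean of 5 FPKM, both other variance models and removal of mitochondrial and ribosomal protein genes. Without a filter on low values 9 of them were higher and 2 lower. Quantile normalization gave 12 and 2, but only 11 of the 12 higher calls were the same, since Polr2f was lost and Polr3g gained. Either length trend removed gave the same 12 higher and 2 lower. With replicate number as a block they were 12 and 3, and over all tested genes 2484 and 3553. The labels do not tie same-numbered libraries together, and the replicate gaps of the groups had a correlation of -0.0101 across genes. Leaving out 1 library gave 0 to 18 higher and 0 to 8 lower among subunits, 259 to 4385 and 237 to 5249 among all tested genes (2578 and 3628 with every library) and 2 to 46 and 1 to 32 among the other pathway genes. Those pathway genes had 11 lower without a filter, and all tested genes had 2158 lower at a required mean of 5 FPKM, where fewer genes were tested. The median log2 difference of all tested genes was -0.0971, and was 0.0211 under quantile normalization and -0.197 when mitochondrial and ribosomal protein genes were removed. Genes that did not pass changed sign under some settings. With 1 library left out, Polr1b ranged from -0.567 to 0.479, Polr1e from -0.834 to 0.13, Polr2a from -1.14 to 0.146, Polr2c from -0.145 to 0.0495 and Polr2k from -0.0959 to 0.216. Polr1b was at 0.0043 and Polr2c at 0.00259 with median-ratio scaling, and Polr1b at 0.129 with quantile normalization. With the exonic length trend removed Polr1b, Polr2c, Polr2e and Polr2k were at 0.134, 0.101, -0.0292 and -0.398, and with the span trend removed Polr2e and Polr2k were at -0.0534 and -0.0615. Polr2e and Polr2k were at -0.0439 and -0.039 when mitochondrial and ribosomal protein genes were removed. The cause of these changes was not tested. The smaller depth of the 5-FU libraries left at least about 109 reads for each tested subunit gene in 5-FU replicate 1 and about 105 in 5-FU replicate 2.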
